A study of Homo sapiens with 4 samples.

Results

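The SLC25A genes encode the mitochondrial carrier family, and the members described here are the 48 protein-coding genes of the deposited table whose symbol is SLC25A followed by a number, out of 20263 genes in all. They were found by matching the table's Ensembl identifiers to GENCODE 29, the annotation of the human genome build GRCh38, and were then grouped by the substrate each carrier is known to move. HCT116 cells, a human colon cancer line, were given 7A for 24 h or DMSO, the solvent, for the same time, and mRNA was sequenced from 2 libraries of each group. The series title calls 7A a derivative of neratinib, a drug that blocks the ERBB family of receptor kinases, and the labels used here state no dose. The groups share the line, the DMEM with serum it grew in and the time, and differ by the compound. All results come from 1 line, and the labels do not say whether the 2 libraries of a group came from separate cultures, so the spread between them may be technical.

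The inner mitochondrial membrane is closed to most polar molecules, and these carriers are the passages through it. Most carriers exchange a substrate inside the matrix for another outside. Through them ATP leaves and ADP enters, phosphate comes in for ATP synthesis, citrate and malate link the tricarboxylic acid cycle to lipid synthesis and to the cytosolic redox state, and amino acids, nucleotides, cofactors and iron reach the enzymes of the matrix. They are encoded in the nucleus, made in the cytosol and inserted into the membrane by the TIM22 import machinery. What follows concerns transcripts, not protein or transport.

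Library totals were 49924044 and 61605005 counts in 7A replicates 1 and 2, and 31120459 and 29769568 counts in DMSO replicates 1 and 2. Levels are counts per 1000000 (CPM) scaled by the trimmed mean method of edgeR (TMM), and changes are on the log2 scale, 7A over DMSO, each ± its standard error. A gene rose or fell when its edgeR quasi-likelihood p, adjusted by Benjamini-Hochberg over all 14026 genes tested, was under 0.05. A count of 0 in a library is compatible with up to 3 counts at 95% confidence, which is 0.0649 and 0.0543 CPM in the 7A libraries and 0.0879 and 0.0918 CPM in the DMSO libraries, counting error alone. The epithelial genes EPCAM, KRT8, KRT18 and KRT19 were abundant in every library and higher with 7A. CDH1 went the other way, at 58.8 and 64.1 CPM with 7A, against 76.7 and 67.7 CPM with DMSO. So did CDX2, at 9.23 and 10.5 CPM with 7A, against 12.2 and 12.8 CPM with DMSO. The colon genes VIL1 and LGALS4 were at or under 0.264 CPM. Of 12 markers of blood, stromal and endothelial cells, 3 were at 0 in every library, and their summed level was 93.2 and 135 CPM in the 7A libraries, against 98.5 and 89.8 CPM in the DMSO libraries. Nearly all of that sum was CD68, at 55.8 and 91.4 CPM with 7A, against 36.8 and 31.2 CPM with DMSO, and COL1A1, at 33.7 and 38.6 CPM with 7A, against 57.6 and 54.7 CPM with DMSO. Their part in the results was not tested.

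The pyrimidine nucleotide carriers, SLC25A33 and SLC25A36, share a substrate, and the 250 bases before their RefSeq starts are shown because both hold the same recognition letters. Capitals mark CACGTG, the E-box read by MYC, MAX, MondoA and USF factors, and TGACGTCA, the cyclic AMP response element read by CREB and ATF factors. The sequences are RefSeq's, 5′ to 3′ on the plus strand of GRCh38.p14, from chr1:9539215-9539464 and chr3:140941586-140941835.
SLC25A33: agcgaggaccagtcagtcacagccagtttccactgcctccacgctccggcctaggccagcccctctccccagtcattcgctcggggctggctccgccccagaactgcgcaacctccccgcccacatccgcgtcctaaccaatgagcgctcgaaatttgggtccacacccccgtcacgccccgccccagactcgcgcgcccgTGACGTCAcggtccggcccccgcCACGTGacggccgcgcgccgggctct
SLC25A36: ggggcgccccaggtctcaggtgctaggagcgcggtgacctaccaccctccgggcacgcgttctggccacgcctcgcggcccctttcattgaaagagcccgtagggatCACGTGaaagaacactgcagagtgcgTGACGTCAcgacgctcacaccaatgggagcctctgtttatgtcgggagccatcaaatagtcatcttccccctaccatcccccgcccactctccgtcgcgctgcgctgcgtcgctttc
In SLC25A33 the response element begins 49 bases and the E-box 26 bases before the start. In SLC25A36 the E-box begins 143 bases and the response element 117 bases before it.

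RefSeq windows were found for 40 of the 48 genes. Both strands were searched for CACGTG, for TGACGTCA, for the NRF1 motif (GCGCA, any base, then GCGC; NRF1 regulates nuclear genes for mitochondria) and for TGATGNAA (the C/EBP-ATF composite read by ATF4). CACGTG was present in 7 of 40 SLC25A windows (17.5%) and in 7.80% of 15843 windows of protein-coding genes. It was present in 2 of the 12 windows of genes that rose, 1 of 5 of genes that fell and 3 of 19 of genes that did not pass. The NRF1 motif was in 4 of 40 windows (10%, against 7.66% of all). These were SLC25A3 and SLC25A11, which rose, and SLC25A31 and SLC25A52, which were not tested. TGATGNAA was in 1, that of SLC25A11, and 2.20% of all windows held it. TGACGTCA was in 2, those of SLC25A33 and SLC25A36, and 2.29% of all windows held it. TGACGTCA was added to the search after these sequences had been read. These are matches of letters within 250 bases and say nothing of binding.

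Of the 48 genes, 43 had enough counts to be tested, 14 rose, 6 fell and 23 did not pass. That is 46.5% changed, against 48.4% of all genes tested, so the family as a whole changed about as often as the rest of the transcriptome. By direction, 32.6% of tested carriers rose, against 23.9% of all genes, and 14.0% fell, against 24.6%. Whether these shares differ from the background was not tested. Of the 43 tested carriers, 10 both passed the test and differed by at least 2-fold, as did 2892 of the 14026 genes (20.6%). SLC25A18 and SLC25A34, counted here and among the falls, had enough counts to be tested only in the DMSO libraries. The CPM of the groups did not overlap for 29 of the 43 (67.4%), as for 78.4% of all genes. The median change of the tested carriers was 0.13, beside -0.03 over all genes.

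That balance moved with the scaling. Library totals alone lowered the median of all genes to -0.29 and that of the carriers to -0.14, with 10 carriers higher and 9 lower, and 1951 of all genes higher and 4934 lower. Upper-quartile scaling put all genes at -0.14 and the carriers at 0.01, with 13 higher and 8 lower. The carrier median lay above that of all genes by 0.15 in each of these settings and with TMM. A correction for GC content and transcript length gave 18 carriers higher and 6 lower, and it also moved all genes to 4284 higher and 2774 lower, against 3349 and 3446 with TMM. Without 7A replicate 1, 12 carriers rose and 3 fell, and over all genes 3054 rose and 2619 fell.

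**Figure D1:**
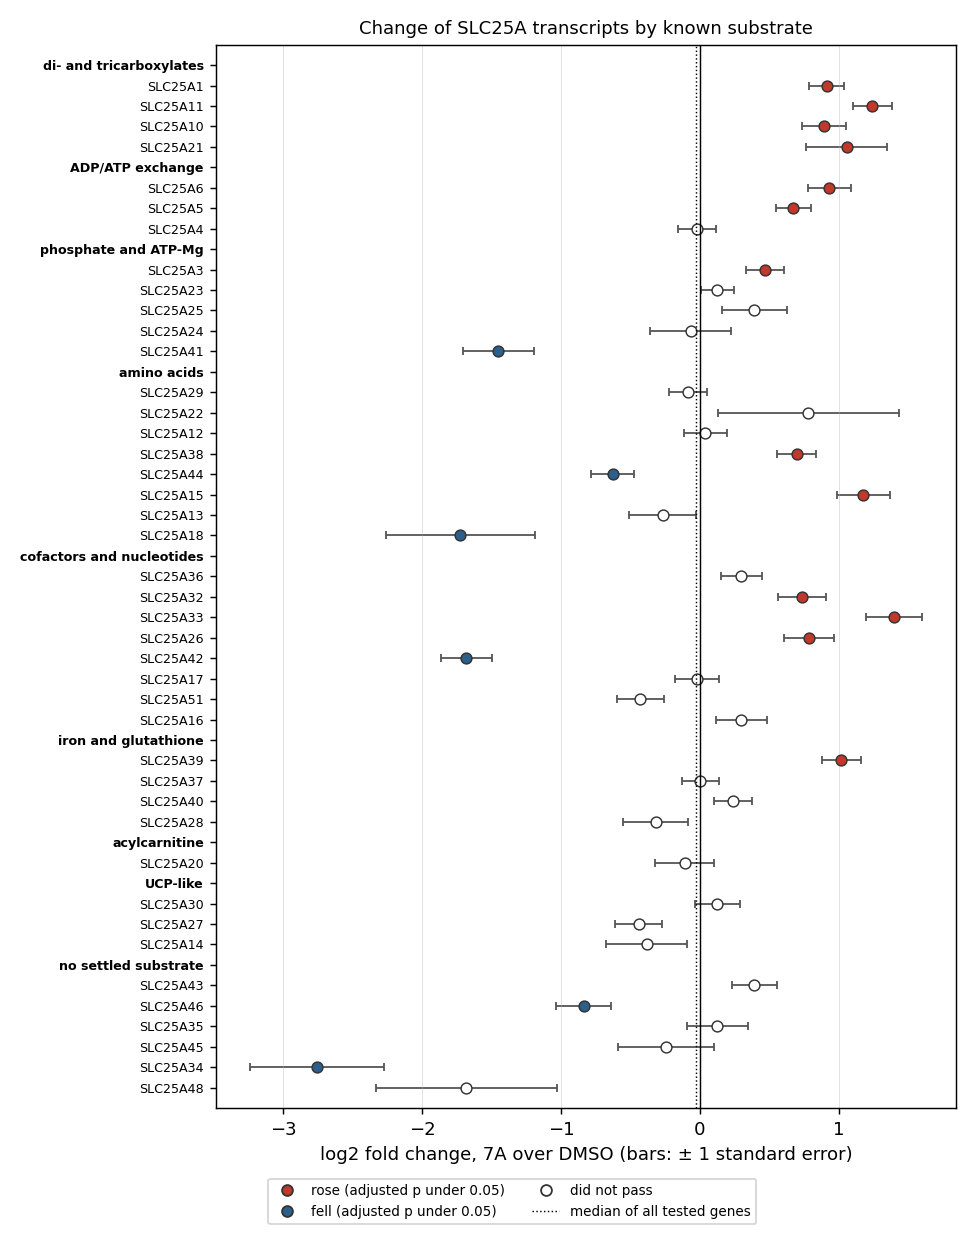
Change on the log2 scale of 7A over DMSO for 42 of the tested SLC25A genes, grouped by substrate, with bars of 1 standard error, filled where the edgeR adjusted p was under 0.05. All 4 di- and tricarboxylate carriers lie at 0.90 or above, while the other groups hold both changed members and members near 0 or hold none that changed.

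Most of the summed level lay in the carriers that rose. Summed over the family on the TMM scale, carrier transcripts read 4090 and 4056 CPM in the 7A libraries, against 2793 and 2692 CPM in the DMSO libraries. The TMM factors were 0.9265 and 0.8968 in the 7A libraries and 1.0963 and 1.0978 in the DMSO libraries. Scaling by library totals alone would therefore narrow this difference. The 14 that rose held 3022 and 3053 CPM of that sum in the 7A libraries, against 1801 and 1696 CPM in the DMSO libraries. The 6 that fell held only 34.6 and 42.1 CPM with 7A, against 76.6 and 75.4 CPM with DMSO. Across the 43 tested genes, log2 fold change and mean CPM had a Spearman rho of 0.50. It is given as a description, since the genes share the same 4 libraries and the largest falls were among genes with few counts. SLC25A18, SLC25A34 and SLC25A48 had enough counts to be tested only in the DMSO libraries, so the filter itself ties low CPM to a fall. Fold change and exon length had a rho of -0.23 across carriers and -0.28 across all tested genes. The carriers that rose had a median exon length of 3012 bases, against 4630 for those that fell and 4859 for those that did not pass.

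**Figure D2:**
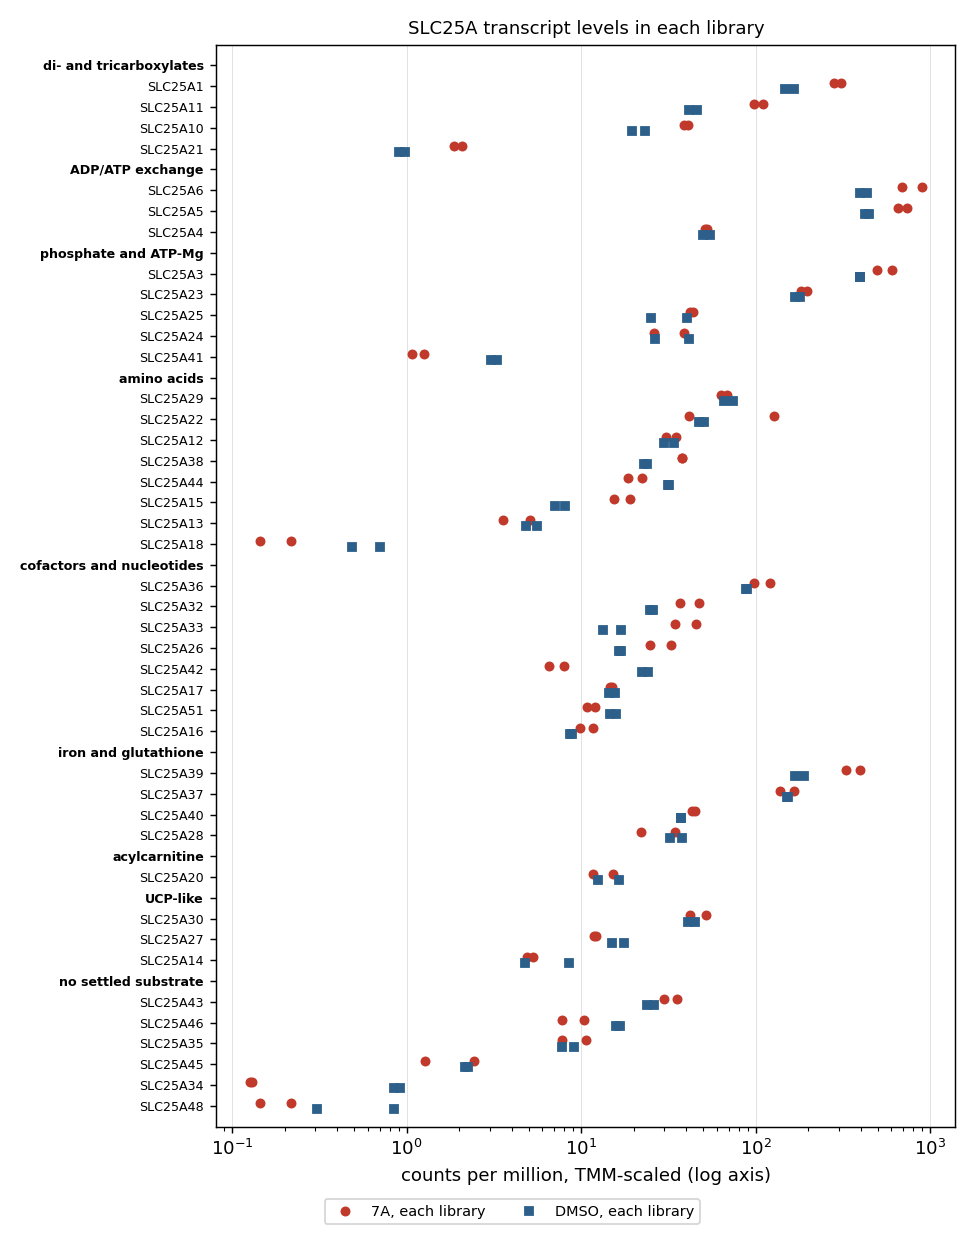
CPM of 42 of the tested SLC25A genes in each library on a log axis, 7A as circles and DMSO as squares, grouped by substrate. Levels run from under 1 CPM (SLC25A18, SLC25A34, SLC25A48) to 737 CPM for SLC25A5 and 897 CPM for SLC25A6 in their highest libraries. The 7A points of SLC25A22, 127 and 41.8 CPM, lie on either side of its DMSO points.

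All 4 carriers classed under di- and tricarboxylates rose, where 23.9% of all genes rose. The classes were set with earlier results of these data known. The call of SLC25A21, given below, did not hold widely. SLC25A1 (ENSG00000100075, chromosome 22, 19175575 to 19178830), the citrate carrier that exports citrate for cytosolic acetyl-CoA and lipid synthesis, read 310 and 280 CPM in the 7A libraries, against 165 and 148 CPM in the DMSO libraries. The 2 groups stood clear of each other, a change of 0.91 ± 0.13 (edgeR adjusted p 0.00169). SLC25A11 (ENSG00000108528, chromosome 17, 4937130 to 4940251), which exchanges oxoglutarate for malate in the malate-aspartate shuttle, read 98.1 and 110 CPM with 7A, against 46.4 and 41.4 CPM with DMSO (1.24 ± 0.14; edgeR adjusted p 0.00102). SLC25A10, which exchanges malate or succinate for phosphate, read 41.0 and 38.7 CPM with 7A, against 19.5 and 23.3 CPM with DMSO (0.90 ± 0.16; edgeR adjusted p 0.00398).

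These 3 carriers kept their call in every alternative run. SLC25A21, the oxoadipate carrier of lysine and tryptophan breakdown, was scarce, at 1.86 and 2.08 CPM with 7A, against 0.909 and 0.979 CPM with DMSO. Its rise of 1.06 ± 0.29 (edgeR adjusted p 0.0209) was lost without 7A replicate 1 or 2, without DMSO replicate 1 or 2, with DESeq2 and with library totals alone (adjusted p 0.0508, 0.0917, 0.0866, 0.0748, 0.0536 and 0.0538). Some of these counts could belong to a neighbour if the counting ignored strand, and no source used here states its strand setting: 9.14% of the exon length of SLC25A11 lies opposite RNF167 and 13.0% of that of SLC25A21 opposite PAX9. A gene on the same strand, AC139530.2, covers 46.6% of the exon length of SLC25A10, and it read at most 3.14 CPM. What this overlap adds to or takes from the count of SLC25A10 was not tested.

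The enzymes on either side of these carriers were examined as a list of 10, of which 6 rose and 1 fell, with a median of 0.81. Over all tested genes 23.9% rose and 24.6% fell, with a median of -0.03. ACLY, which splits exported citrate, averaged 771 CPM with 7A and 344 CPM with DMSO (1.17 ± 0.12; edgeR adjusted p 0.000872). ME1, the cytosolic malic enzyme, rose by 1.25 ± 0.14, and MDH2, the mitochondrial malate dehydrogenase, by 1.12 ± 0.14. ACO1, the cytosolic aconitase, fell by 0.49 ± 0.14 (edgeR adjusted p 0.0224). Of 5 carnitine shuttle enzymes 0 rose and 2 fell, CPT2 by 0.87 and CPT1B by 0.56. Their carrier SLC25A20, which brings acylcarnitine into the matrix, read 15.1 and 11.7 CPM with 7A, against 16.4 and 12.5 CPM with DMSO (-0.11 ± 0.21; edgeR adjusted p 0.697).

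Among the ADP/ATP carriers, the proliferative and ubiquitous forms rose while the muscle form did not pass. SLC25A5 (ENSG00000005022, chromosome X, 119468400 to 119471319), which encodes ANT2, read 737 and 657 CPM in the 7A libraries, against 449 and 425 CPM in the DMSO libraries (0.67 ± 0.13; edgeR adjusted p 0.0048). SLC25A6 (ENSG00000169100, chromosome X, 1386152 to 1392724), which encodes ANT3 and lies in the region shared by X and Y, read 694 and 897 CPM with 7A, against 435 and 398 CPM with DMSO (0.93 ± 0.16; edgeR adjusted p 0.0032). Both rises held in every alternative run. SLC25A4, which encodes ANT1, read 52.4 and 51.1 CPM with 7A, against 55.1 and 49.7 CPM with DMSO, so its groups overlapped (-0.02 ± 0.14; edgeR adjusted p 0.925).

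SLC25A31, the testis form, had 0 and 0 counts with 7A, against 4 and 6 counts with DMSO, and was too scarce to test. Per kilobase of exon (RPKM), SLC25A5 and SLC25A6 were the highest carriers of all, at 465 and 368 RPKM with 7A, against 291 and 192 RPKM with DMSO, and SLC25A1 came next, at 141 RPKM with 7A and 74.6 RPKM with DMSO. Of the summed RPKM of the ADP/ATP carriers, SLC25A4 supplied 1.31% and 1.22% with 7A, against 2.22% and 2.15% with DMSO. GENCODE names 9 pseudogenes of SLC25A5 and 6 of SLC25A6, and how the counter treated reads that match several copies is unknown.

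Of 5 phosphate and ATP-Mg carriers, 1 rose, 1 fell and 3 did not pass, where 23.9% of all genes rose and 24.6% fell. SLC25A3 (ENSG00000075415), the phosphate carrier that also brings copper to cytochrome oxidase, read 607 and 493 CPM with 7A, against 397 and 398 CPM with DMSO (0.47 ± 0.14; edgeR adjusted p 0.0271). The call did not hold widely: it was lost without 7A replicate 1, without DMSO replicate 1 and without DMSO replicate 2 (edgeR adjusted p 0.0751, 0.109 and 0.112), with upper-quartile scaling (0.0645), with library totals alone (0.274) and with a filter of 5 CPM (0.0521). A correction for GC and length raised it to 0.99.

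The calcium-regulated ATP-Mg carriers SLC25A23, SLC25A24 and SLC25A25 did not pass. SLC25A23 averaged 190 ± 9.59 CPM with 7A and 174 ± 9.08 CPM with DMSO (SD, n = 2 each), and SLC25A24 averaged 32.6 CPM with 7A and 34.1 CPM with DMSO. SLC25A25 read 42.2 and 44.0 CPM with 7A, against 25.1 and 40.5 CPM with DMSO (0.39 ± 0.23; edgeR adjusted p 0.204), and was called higher without DMSO replicate 2 (0.0334). SLC25A41, a related carrier with little expression in this line, fell to 1.25 and 1.07 CPM in the 7A libraries, against 3.31 and 3.03 CPM in the DMSO libraries (-1.45 ± 0.26; edgeR adjusted p 0.00409). It lies 2299 bases from SLC25A23 on chromosome 19, on the same strand.

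Amino acid carriers went both ways. SLC25A15 (ENSG00000102743), the ornithine carrier, read 19.1 and 15.5 CPM with 7A, against 8.12 and 7.13 CPM with DMSO (1.18 ± 0.19; edgeR adjusted p 0.00292), and held in every alternative run. SLC25A38, the glycine carrier that feeds haem synthesis, read 38.1 and 38.1 CPM with 7A, against 24.0 and 22.9 CPM with DMSO (0.70 ± 0.14; edgeR adjusted p 0.00668, and 0.056 without DMSO replicate 2). SLC25A44, the carrier of branched-chain amino acids, fell to 18.6 and 22.4 CPM with 7A, against 31.5 and 31.9 CPM with DMSO (-0.63 ± 0.16; edgeR adjusted p 0.0149). That fall was lost without 7A replicate 1, DMSO replicate 1 or DMSO replicate 2 (edgeR adjusted p 0.0643, 0.0673 and 0.0824), and the correction for GC and length took it to -0.41.

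The aspartate/glutamate carriers of the malate-aspartate shuttle did not pass. SLC25A12 read 34.8 and 30.7 CPM with 7A, against 29.7 and 34.0 CPM with DMSO, and SLC25A13 read 5.10 and 3.58 CPM with 7A, against 4.84 and 5.60 CPM with DMSO. SLC25A29, a carrier of basic amino acids, averaged 66.2 ± 3.98 CPM with 7A and 70.1 ± 5.87 CPM with DMSO (SD, n = 2 each).

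The glutamate carrier SLC25A22 had 7A libraries that disagreed, at 127 and 41.8 CPM with 7A, against 50.9 and 47.2 CPM with DMSO (0.78 ± 0.65; edgeR adjusted p 0.399). Without 7A replicate 2 it gave 1.37 (edgeR adjusted p 0.0147), and without 7A replicate 1 it gave -0.21 (0.269), so its direction rests on 1 library. SLC25A18, the other glutamate carrier, fell to 10 and 8 counts with 7A, against 24 and 16 counts with DMSO (-1.72 ± 0.53; edgeR adjusted p 0.032), a call lost without 7A replicate 1 or 2, without DMSO replicate 1 or 2, with DESeq2, with no filter and with the replicate block (adjusted p 0.0819, 0.150, 0.190, 0.0750, 0.112, 0.0673 and 0.0501). SLC25A18 had enough counts to be tested only in the DMSO libraries, where it was higher. SLC25A2, a further ornithine carrier, had 0 and 2 counts with 7A, against 0 and 0 counts with DMSO, and was not tested.

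Carriers of cofactors and nucleotides numbered 9 tested, of which 4 rose and 1 fell, where 23.9% of all genes rose and 24.6% fell. They held the largest fall among carriers above 5 CPM in either group. SLC25A33 (ENSG00000171612, chromosome 1, 9539482 to 9585179), a pyrimidine nucleotide carrier, read 45.6 and 34.5 CPM with 7A, against 17.0 and 13.4 CPM with DMSO (1.40 ± 0.20; edgeR adjusted p 0.00196). SLC25A42 (ENSG00000181035, chromosome 19, 19063999 to 19112888), a carrier of coenzyme A, fell to 6.55 and 8.02 CPM with 7A, against 24.3 and 22.4 CPM with DMSO (-1.68 ± 0.18; edgeR adjusted p 0.000945). Neither lost its call in any alternative run.

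The carriers of folate and of S-adenosylmethionine rose, with DMSO libraries close together and 7A libraries further apart. SLC25A32, the carrier of folate and FAD, read 47.3 and 36.9 CPM with 7A, against 25.7 and 24.8 CPM with DMSO (0.74 ± 0.17; edgeR adjusted p 0.0108). SLC25A26, the S-adenosylmethionine carrier, read 32.6 and 24.9 CPM with 7A, against 16.8 and 16.5 CPM with DMSO (0.79 ± 0.18; edgeR adjusted p 0.01). Library totals alone ended both calls (edgeR adjusted p 0.0655 and 0.0556), as did leaving out DMSO replicate 2 (0.0619 and 0.0585), and SLC25A32 also lost its call without DMSO replicate 1 (0.0501). A gene on the same strand, AC012213.5, covers 69.7% of the exon length of SLC25A32 and has no row in the deposited counts. On the opposite strand SLC25A32 shares 11.1% of its exon length with DCAF13, and SLC25A26 shares 15.5% with LRIG1. DCAF13 read 90.7 and 86.7 CPM with 7A, against 44.2 and 50.6 CPM with DMSO. How much these overlaps add to or take from each carrier's count was not tested.

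The other cofactor carriers did not pass. SLC25A16, also linked to coenzyme A, read 11.7 and 9.83 CPM with 7A, against 8.62 and 8.87 CPM with DMSO. SLC25A36 read 121 and 97.7 CPM with 7A, against 89.7 and 87.5 CPM with DMSO (0.30 ± 0.14; edgeR adjusted p 0.122, and 0.0448 without 7A replicate 2). The correction for GC and length called both higher, at 0.80 and 0.84. The peroxisomal carrier SLC25A17 read 14.9 and 14.7 CPM with 7A, against 15.7 and 14.4 CPM with DMSO. The NAD carrier SLC25A51 read 10.8 and 12.0 CPM with 7A, against 14.6 and 15.9 CPM with DMSO (-0.43 ± 0.17; edgeR adjusted p 0.0718), and was called lower with upper-quartile scaling (0.0345), library totals alone (0.0139), a filter of 5 CPM (0.0413) and the GC and length correction (0.031). SLC25A52, its close copy, had 3 and 3 counts with 7A, against 4 and 6 counts with DMSO.

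In the iron and glutathione group 1 of 4 carriers rose and 0 fell, where 23.9% of all genes rose and 24.6% fell. SLC25A39 (ENSG00000013306, chromosome 17, 44319625 to 44324870), which imports glutathione, read 329 and 396 CPM with 7A, against 189 and 169 CPM with DMSO (1.02 ± 0.14; edgeR adjusted p 0.00166). Its paralogue SLC25A40 read 44.8 and 43.3 CPM with 7A, against 37.4 and 37.4 CPM with DMSO (0.24 ± 0.14; edgeR adjusted p 0.187). The mitoferrins, which bring iron to the matrix, did not pass: SLC25A37 read 138 and 166 CPM with 7A, against 151 and 152 CPM with DMSO, and SLC25A28 read 34.4 and 21.9 CPM with 7A, against 32.2 and 37.97 CPM with DMSO.

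Haem and iron-sulfur cluster genes, which use the iron and glycine these carriers supply, formed a list of 14, of which 7 rose and 2 fell, with a median of 0.38, where 23.9% of all genes rose and 24.6% fell. Library totals alone left 2 higher and 2 lower, and 1951 of 14026 genes higher and 4934 lower. ISCU, the cluster scaffold gene, averaged 120 CPM with 7A and 69.9 CPM with DMSO (0.78 ± 0.13; edgeR adjusted p 0.00328). GLRX5, a glutaredoxin of cluster assembly, rose by 0.56. ALAD, an enzyme of haem synthesis, averaged 26.9 CPM with 7A and 40.9 CPM with DMSO (-0.60 ± 0.16; edgeR adjusted p 0.0183). ALAS2, the erythroid form of the haem entry enzyme, was called lower (edgeR adjusted p 0.0164) with at most 0.275 CPM in any library. It had enough counts to be tested only in the DMSO libraries, where it was higher.

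The carriers related to the uncoupling proteins did not pass. SLC25A27 (UCP4) read 11.9 and 12.2 CPM with 7A, against 17.6 and 15.1 CPM with DMSO (-0.44 ± 0.17; edgeR adjusted p 0.0662). It was called lower with upper-quartile scaling, library totals alone and a filter of 5 CPM (edgeR adjusted p 0.0311, 0.0141 and 0.0362). SLC25A14 read 5.30 and 4.89 CPM with 7A, against 4.78 and 8.51 CPM with DMSO, and SLC25A30 read 52.2 and 41.8 CPM with 7A, against 45.0 and 41.0 CPM with DMSO, so the groups of both overlapped. After the correction for GC and length SLC25A30 was called higher, at 0.55. Of the 5 family members that carry other symbols, 1 of 3 tested rose, where 23.9% of all genes rose. This was UCP2, which averaged 17.2 CPM with 7A and 7.37 CPM with DMSO (1.22 ± 0.20; edgeR adjusted p 0.00303).

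Of the 8 carriers with no settled substrate 6 were tested, of which 0 rose and 2 fell, where 23.9% of all genes rose and 24.6% fell. SLC25A34 had the largest fall of all, but on few counts, with 6 and 7 counts in the 7A libraries, against 29 and 30 counts in the DMSO libraries (-2.76 ± 0.48; edgeR adjusted p 0.00379). It had enough counts to be tested only in the DMSO libraries, where it was higher, so its call is weak support for a fall. SLC25A46, an outer membrane protein involved in mitochondrial shape, fell to 7.80 and 10.4 CPM with 7A, against 15.9 and 16.6 CPM with DMSO (-0.83 ± 0.20; edgeR adjusted p 0.012). That call was lost without 7A replicate 1 (edgeR adjusted p 0.0544), without DMSO replicate 2 (0.0597) and after the correction for GC and length (0.0546).

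SLC25A43, 13921 bases from SLC25A5 on the X chromosome, read 29.9 and 35.5 CPM with 7A, against 23.7 and 26.1 CPM with DMSO (0.39 ± 0.16; edgeR adjusted p 0.0758), and was called higher after the correction for GC and length (0.0469). SLC25A35 averaged 9.24 CPM with 7A and 8.46 CPM with DMSO, with 33.2% of its exon length opposite RANGRF. SLC25A45 averaged 1.85 CPM with 7A and 2.20 CPM with DMSO, and SLC25A48, at 10 and 8 counts with 7A, against 29 and 10 counts with DMSO, was called lower with library totals alone and without DMSO replicate 2 (edgeR adjusted p 0.0475 and 0.0446). SLC25A53 had 2 and 0 counts with 7A, against 3 and 4 counts with DMSO, and SLC25A47, on which no count fell in any library, was not detected at this depth.

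Carriers of a shared substrate were also compared through the ratio of their counts within each library, which does not depend on the scaling. It can still depend on GC content and length, and the correction for these was not applied to the ratios. Each ratio is log2 of the counts plus 0.5. For 9 of the 13 pairs compared the groups did not overlap, where the CPM of single genes did not overlap for 78.4% of all genes tested. The share among ratios of other gene pairs was not computed. The exact two-sided permutation test of 2 against 2 libraries cannot give less than 0.333, and the adjusted p of those 9 was 0.481, so the test could not pass for any pair.

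The widest well-counted difference was in the coenzyme A pair. SLC25A42 to SLC25A16 stood at -0.84 and -0.29 with 7A, against 1.49 and 1.34 with DMSO, a difference of -1.98, so SLC25A42 had fewer counts than SLC25A16 in both 7A libraries and more in both DMSO libraries. In the pyrimidine pair, SLC25A33 to SLC25A36 stood at -1.41 and -1.50 with 7A, against -2.40 and -2.71 with DMSO, a difference of 1.10. SLC25A39 to SLC25A40, the glutathione pair, stood at 2.88 and 3.19 with 7A, against 2.34 and 2.17 with DMSO, a difference of 0.78. SLC25A5 to SLC25A4 stood at 3.81 and 3.68 with 7A, against 3.03 and 3.10 with DMSO, a difference of 0.69.

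In other pairs the groups were apart by less, and leaving out 1 library moved the difference by over 1.5 times. SLC25A25 to SLC25A24 differed by 0.49, and by 0.23 without 7A replicate 1 and 0.75 without 7A replicate 2. SLC25A13 to SLC25A12 differed by -0.33, and by -0.16 without 7A replicate 2 and -0.49 without 7A replicate 1. SLC25A10 to SLC25A11 stood at -1.26 and -1.50 with 7A, against -1.25 and -0.83 with DMSO, so its groups nearly touched. Its difference was -0.34, and -0.55 without DMSO replicate 1, -0.13 without DMSO replicate 2 and -0.22 without 7A replicate 2. SLC25A22 to SLC25A18 and SLC25A51 to SLC25A52 differed by 2.26 and 0.80, each resting on a partner with few counts. The groups overlapped for SLC25A5 to SLC25A6 (-0.25), SLC25A24 to SLC25A23 (-0.18), SLC25A28 to SLC25A37 (-0.35) and SLC25A14 to SLC25A30 (-0.45), each with an exact permutation p of 0.667.

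**Figure D3:**
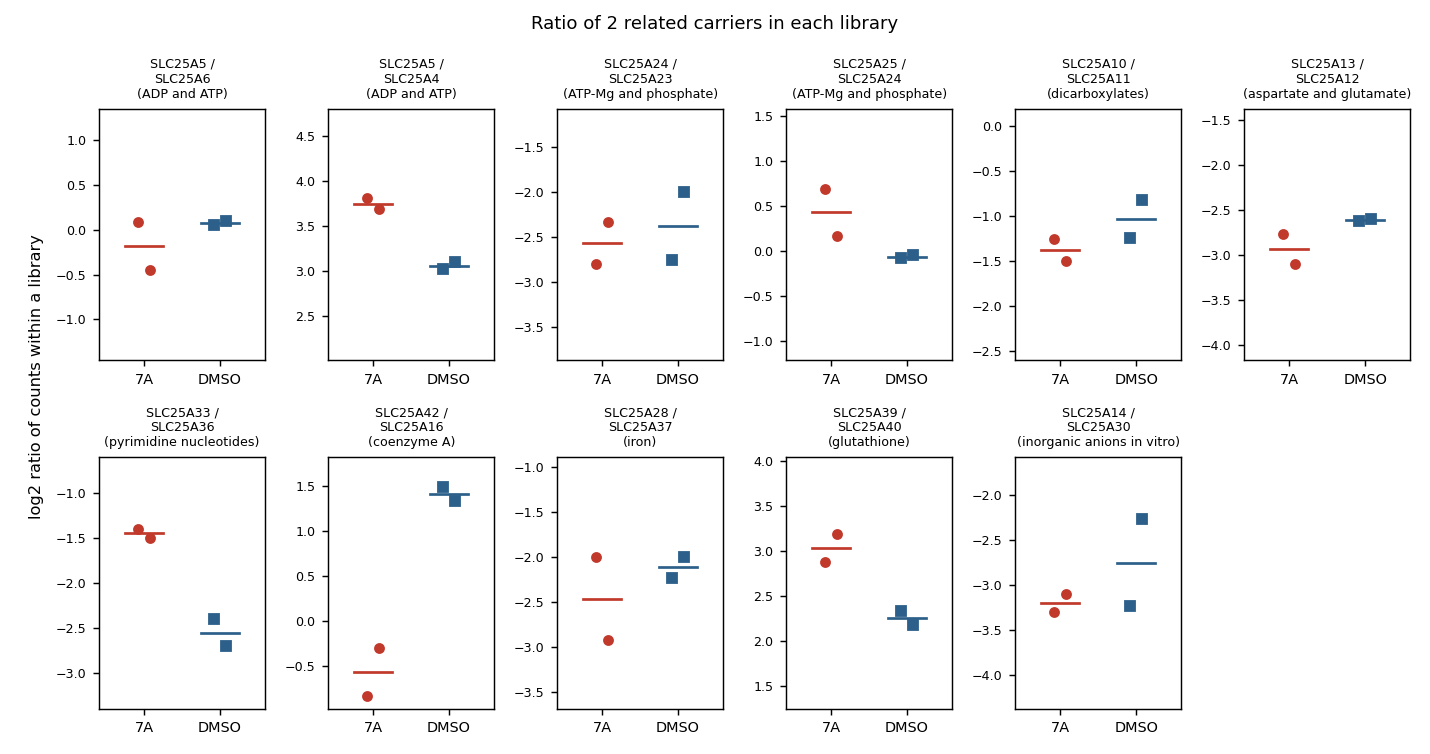
Log2 ratio of the counts of 2 related carriers in each library, 7A as circles at the left and DMSO as squares at the right of each panel, with the group mean as a line, for the 11 pairs with at least 10 counts of each member in every library. The groups lie farthest apart for SLC25A42 to SLC25A16 (difference -1.98) and SLC25A33 to SLC25A36 (1.10), and they overlap for SLC25A5 to SLC25A6.

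The machinery that inserts carriers and the other transport proteins of the mitochondrial membranes were read beside the family. Of 10 genes listed for TIM22 import, 5 rose and 0 fell, where 23.9% of all genes rose and 24.6% fell. Library totals alone left 4 of them higher and 0 lower, and 1951 of 14026 genes higher and 4934 lower. The 5 that rose with TMM encode small TIM proteins of the intermembrane space, which escort hydrophobic precursors to the inner membrane. TIMM9, a further small TIM protein, did not pass (0.22 ± 0.22; edgeR adjusted p 0.432). TIMM13 averaged 57.4 CPM with 7A and 20.6 CPM with DMSO (1.48 ± 0.14; edgeR adjusted p 0.000728), and TIMM10B, TIMM10, TIMM8B and TIMM8A rose by 1.37, 1.26, 0.80 and 0.74. The channel gene TIMM22 (0.34; edgeR adjusted p 0.0978) and the receptor gene TOMM70 (0.12; 0.461) did not pass.

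Of 22 other membrane transport genes tested, 12 rose and 2 fell, median 0.52, where 23.9% of all genes rose and 24.6% fell. Library totals alone left 5 of them higher and 4 lower, and 1951 of 14026 genes higher and 4934 lower. SFXN4, a sideroflexin of iron-sulfur and complex I biology, averaged 48.1 CPM with 7A and 16.8 CPM with DMSO (1.52 ± 0.15; edgeR adjusted p 0.000729). LETM1, an inner membrane ion exchanger, averaged 132 CPM with 7A and 51.6 CPM with DMSO (1.35 ± 0.13; edgeR adjusted p 0.000749), and SFXN2, another sideroflexin, rose by 1.34. SFXN3, a serine carrier, fell by 0.74 ± 0.14 (edgeR adjusted p 0.00557).

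Of the 20 carrier calls, 12 were made in each of the 4 fits that left out a library (9 higher, 3 lower). Among them were the rises of SLC25A1, SLC25A5, SLC25A6, SLC25A10, SLC25A11, SLC25A15, SLC25A33 and SLC25A39 and the falls of SLC25A34, SLC25A41 and SLC25A42. SLC25A34 had enough counts to be tested only in the DMSO libraries, so its repeated call remains weak support for a fall. All 12 but SLC25A34 and SLC25A41, which a filter of 5 CPM leaves untested, were called in the same direction under all 13 alternatives.

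**Figure D4:**
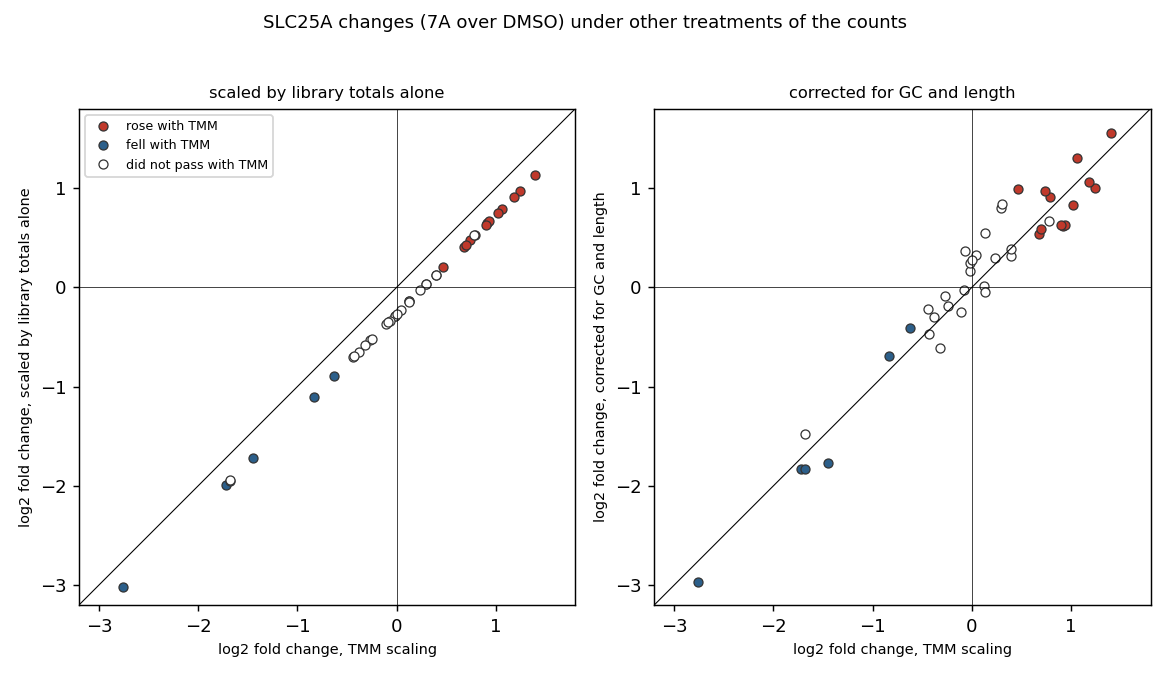
Log2 fold change of 42 of the tested SLC25A genes with TMM on the x axis against the value scaled by library totals alone (left) and corrected for GC and length (right), coloured by the TMM call, with the line of equality. Library totals alone lowered every carrier by about the same amount, while the correction spread the genes that did not pass, among them SLC25A36, to 0.84, and SLC25A16, to 0.80.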

How the data were processed

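The authors deposited raw counts per gene, 1 column for each of the 4 libraries, a unit read from the table's name and its whole-number values. Libraries were made from total RNA with an mRNA kit, per the labels' protocols. The submitters' processing notes name hg38, mm10 and GRCm38; no source used here names an aligner, counter, annotation or strand setting. Of 20263 genes, 3736 had no count.

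Counts were fitted with edgeR 4.0.16 under R 4.3.3, keeping genes by filterByExpr with a minimum count of 10 (TMM scaling; robust quasi-likelihood F test; Benjamini-Hochberg over 14026 genes), with a biological coefficient of variation of 17.7%. A standard error is the log2 fold change over the square root of F. Only the spread among the 4 libraries enters the p-values. RPKM uses exon length merged over the transcripts of GENCODE 29. Related lists are named by up to 4 members of smallest adjusted p. Alternatives were DESeq2 1.42.0, limma-voom (limma 3.58.1), RLE, upper-quartile and no scaling, 2 filters, a replicate block, each library left out, a threshold of 0.01, and offsets for GC and length (splines, 5 degrees of freedom, prior count 2; 99.9% of genes had both). The fits were also run on simulated counts, and the outcome is not used as support here. Values of 1 carrier and 1 related gene, which stay in the counts, are not reported here. Members, substrate classes, pairs and lists were chosen with earlier results of these data known. Same-numbered libraries did not deviate together (r = -0.05 over genes). Python 3.11.15, SciPy 1.17.1 and matplotlib 3.10.9 did the rest.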

Additional observations from a re-analysis of the deposited data

How the results depend on the processing

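Counts of all changed genes stood at 6795, between 3864 and 5673 with 1 library left out, and at 3860 with a threshold of 0.01. Carriers that rose numbered 14, and 10 to 15 with 1 library left out; carriers that fell numbered 6, and 3 to 5 with 1 left out, and 3 with a threshold of 0.01. The replicate block gave 14 higher and 5 lower, and SLC25A18 was the carrier whose call it changed. No label pairs the libraries, and same-numbered ones did not deviate together. The carrier median of 0.13 became 0.14 with DESeq2, RLE scaling and no filter, 0.12 with limma-voom and the replicate block, 0.015 with upper-quartile scaling, 0.15 with a filter of 5 CPM, 0.32 with the GC and length correction and -0.14, reversed, with library totals alone, and 0.12 to 0.19 with 1 library left out. The cause of these shifts was not tested. With 1 library left out, the pair differences ran from -0.52 to 0.016 for SLC25A5 to SLC25A6, from -0.56 to 0.20 for SLC25A24 to SLC25A23, from -0.80 to 0.11 for SLC25A28 to SLC25A37 and from -0.93 to 0.036 for SLC25A14 to SLC25A30, so the sign of each changed when 1 library was left out. The summed RPKM of the carriers in DMSO was 903 with merged exons and 1126 with the longest transcript. Few counts limit SLC25A18, SLC25A34 and SLC25A48, which had enough to be tested only in the DMSO libraries. Having 2 libraries a group limits every call.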
